A study of Mus musculus with 12 samples.

Results

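Gene expression was compared between kidney tubular cells with and without a MYC construct, all of which carried floxed Setd2 and Cre. The comparison set 3 MYC Setd2 knockout libraries (Ksp1.3/cre; MYCfl/fl;Setd2fl/fl, here also the compound mutant) against 3 Setd2 knockout libraries (Ksp1.3/cre; Setd2fl/fl). These were 6 of the 12 RNA sequencing libraries of the study, chosen by their genotype labels. Both groups carried the Ksp1.3/cre driver and both floxed Setd2 alleles, and the MYCfl/fl construct was the labelled difference. The other 6 libraries were 3 of Setd2fl/fl mice without Cre (wild type) and 3 of Ksp1.3/cre; MYCfl/fl mice (MYC). They entered the fits to estimate the spread between animals. In the further fits described below, which hold terms for sets of libraries, the MYC libraries also help to set those terms. The MYC libraries can thereby shift the fold changes of these fits. All were renal tubular epithelial cells isolated from the kidney cortex of C57BL/6 mice, and the series' design text counts 3 mice for each genotype. The sources used here do not give the age of the mice, the floxed exons of Setd2 or the insertion site of the MYC construct.

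MYC is a transcription factor that binds DNA with its partner MAX, most tightly at the E-box sequence CACGTG. It drives genes of ribosome production, nucleotide synthesis and cell division. SETD2 trimethylates lysine 36 of histone H3 along transcribed genes, and its gene is often lost in clear cell renal carcinoma. The Ksp1.3/cre driver uses the promoter of Ksp-cadherin (Cdh16), an adhesion protein of tubular epithelium, so glomerular, vascular and immune cells of the cortex keep unrecombined alleles. Tubular cells that divide or are injured characteristically lower their transport and metabolic genes.

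The 6 libraries did not form 2 uniform groups. Total counts ran from 16657538 to 41608501 in Setd2 knockout and from 8889185 to 14314434 in the compound mutant. By the level of mitochondrial ribosomal RNA the 12 libraries fell into 3 counting sets, in which Setd2 knockout 1 and 2 were in set 1 (over 10000 CPM, the unit of counts scaled to the library total), MYC Setd2 knockout 1 and 2 in set 2, and replicate 3 of both groups in set 3 (under 100 CPM). Xist was present and Y-chromosome transcripts absent in Setd2 knockout 3 and in MYC Setd2 knockout 1 and 3, and the other 3 libraries had the opposite pattern. The replicate 3 libraries thus share a set and a sex but are 1 against 1, while among the other 4 libraries set and genotype cannot be told apart. The first principal component of the 6 libraries carried 63.5% of the variance and placed the replicate 3 libraries on 1 side, at 100.1 and 189.3, and the other 4 between -93.6 and -46. Levels below are CPM scaled by trimmed means (TMM), and they compare libraries for 1 gene, not genes with each other.

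Setd2 and Myc, the manipulated genes, were read first. Setd2 (chromosome 9, 110532597 to 110618633 in GRCm38) stood at 58.9, 79.0 and 63.4 CPM in Setd2 knockout 1, 2 and 3, and the compound mutant libraries 1, 2 and 3 had 62.1, 51.1 and 80.6 CPM. These ranges overlapped (edgeR quasi-likelihood test by group, adjusted p = 0.946). Counts over the whole gene cannot check a deletion of single exons, so the Setd2 genotype rests on the labels in both groups. Mouse Myc (chromosome 15, 61985341 to 61990361) stood at 2.85, 2.73 and 3.99 CPM in Setd2 knockout and at 6.49, 2.27 and 14.0 CPM in the compound mutant. Compound mutants 1 and 3 were above every Setd2 knockout library and compound mutant 2 was below them. By group it differed by 1.26 ± 0.53 log2 units (standard error, 3 libraries each; edgeR adjusted p = 0.511). The sources used here do not say whether transcripts of the construct are counted on mouse Myc. Cdh16, the gene whose promoter drives Cre, overlapped between the groups with a log2 fold change of -0.28 ± 0.61 by group. The transcript of the Rosa26 locus, Gt(ROSA)26Sor, a common site for transgenes, was looked at after its values were seen. It stood at 11.2, 9.29 and 9.39 CPM in Setd2 knockout and at 4.95, 5.3 and 4.28 CPM in the compound mutant, without overlap, and its log2 fold change was -1.04 ± 0.36 by group (edgeR adjusted p = 0.505).

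In the fit by group, 0 of 17019 tested genes were called higher in the compound mutant (0%) and 0 lower (0%) at an adjusted p under 0.05 (edgeR), and the smallest adjusted p was 0.503. Without adjustment, 1624 genes had a p under 0.05. limma-voom called 0 as well, with 1616 genes before adjustment. In DESeq2 71 genes were higher (0.417%) and 106 lower (0.623%). Leaving Setd2 knockout 3 out of the fit by group gave 281 higher and 130 lower, and leaving out any other library of the 2 groups gave 0. All 3 compound mutant libraries lay above all 3 Setd2 knockout libraries for 946 genes (5.56%) and below them for 751 (4.41%).

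The counting sets were therefore handled in 2 further fits, which are quoted below, though not both for every gene. With a term for each set, 528 genes were called higher (3.1%) and 978 lower (5.75%), against 770 and 659 when libraries were scaled by total counts. On the Setd2 knockout side that comparison rests on Setd2 knockout 3, since no other library of the group shares a set with a compound mutant. Compound mutants 1 and 2 enter through the step from set 2 to set 3. MYC 1 (set 2) and MYC 2 and 3 (set 3) also enter that step. Without MYC Setd2 knockout 3 the step rests on these MYC libraries alone. Of the 1506 calls, 562 were made again in each of the 5 fits that left out 1 library of the 2 groups other than Setd2 knockout 3. Over all genes these fits called 268 higher and 641 lower without Setd2 knockout 1, and 268 and 644 without Setd2 knockout 2. Without MYC Setd2 knockout 1, 2 and 3 they called 563 and 1095, 581 and 1142, and 727 and 890. Leaving out Setd2 knockout 1 or 2 cannot test the fold change, because these libraries do not set its value. Setd2 knockout 3, which does, was never left out. Both limits hold for all set term ranges below. With set 3 given its own level and sets 1 and 2 sharing another (called the stratum fit below), 133 genes were called higher (0.781%) and 47 lower (0.276%), against 260 and 43 by total counts. The replicate 3 libraries form 1 stratum of this comparison and the other 4 libraries the other. The stratum fit weighs the replicate 3 difference with that of the other 4 libraries. It called 0 genes without Setd2 knockout 1, 0 without Setd2 knockout 2, 4 higher and 0 lower without MYC Setd2 knockout 1, and 63 and 50 without MYC Setd2 knockout 2, but 727 higher and 343 lower without Setd2 knockout 3. Without MYC Setd2 knockout 3 the stratum fit called 143 higher and 58 lower. On all libraries, 73 genes were called by both further fits. Without the 4 libraries of set 3, 894 of 18035 genes were called higher (4.96%) and 442 lower (2.45%).

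**Figure D1:**
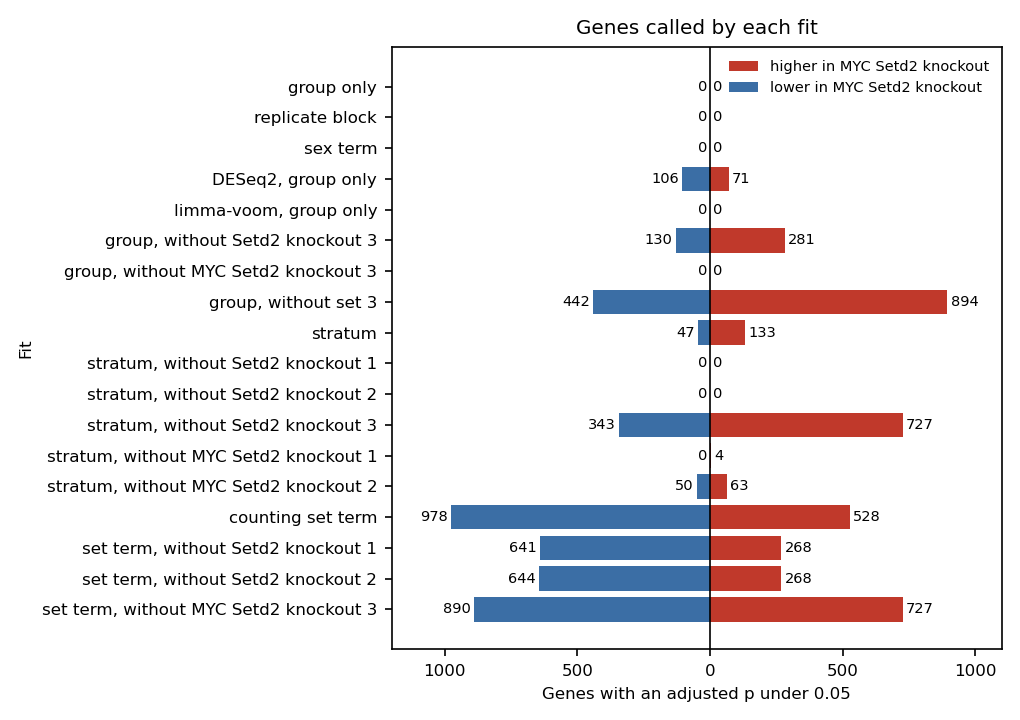
Number of genes with an adjusted p under 0.05 in each fit, higher in MYC Setd2 knockout to the right and lower to the left. The fit by group called 0 genes in either direction, and the fit with a term for the counting sets called 528 higher and 978 lower.

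More genes differed widely between the replicate 3 libraries than between the means of the other 4. Single libraries vary more than means of 2, so the shares below are not like measures. MYC Setd2 knockout 3 was above Setd2 knockout 3 by at least 1 log2 unit for 2867 genes (16.8%) and below it for 3755 (22.1%). The mean of MYC Setd2 knockout 1 and 2 was above that of Setd2 knockout 1 and 2 by as much for 1651 genes (9.7%) and below for 1047 (6.15%). Of the genes higher by that margin, 436 were shared, which is 15.2% of the first list and 26.4% of the second, and of those lower 251 were shared, 6.68% and 24%. Across genes the correlation between the 2 differences was 0.05, a description over 17019 genes that are not independent.

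Immediate early genes, which encode short-lived transcription factors and regulators induced within minutes by growth factors or stress, were higher in the compound mutant in both strata. Of 25 genes, 24 were tested and Egr3 was not. Their median log2 fold change was 2.16 by group, 2.77 with the set term and 1.73 in the stratum fit, where the medians of all genes were 0.01, 0.00 and -0.01. The median difference was 3.04 in the replicate 3 libraries and 1.10 in the other 4, and 22 of 24 genes were higher in both strata. No overlap between the groups was found for 14 of 24 (all genes, 5.56%). The summed level was 412.6, 374.4 and 430.5 CPM in Setd2 knockout and 965.1, 630.9 and 2761.7 CPM in the compound mutant. With the set term 13 of 24 were called higher (all genes, 3.1%), namely Jun, Junb, Fosl2, Atf3, Egr1, Ier2, Ier5, Klf4, Klf6, Nr4a1, Nr4a2, Btg2 and Maff, and the stratum fit called Junb, Nr4a1, Dusp1 and Btg2. Of them the set term called 6 without MYC Setd2 knockout 3 and 9 without Setd2 knockout 1 or 2. The stratum fit called none without Setd2 knockout 1, without Setd2 knockout 2 or without MYC Setd2 knockout 1, and 7 without MYC Setd2 knockout 2.

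The promoters of Dusp1 and Btg2 are shown because both genes were called in the stratum fit and both windows hold the cyclic AMP response element TGACGTCA. The windows of Junb and Nr4a1, also called in that fit, hold neither this element nor CACGTG. Windows are 300 bases long, end just after the RefSeq start in GRCm38.p6, and are written 5′ to 3′ on the gene's strand. Capitals mark TGACGTCA and the E-box CACGTG, both palindromes that read the same on either strand. The Dusp1 window is chr17:26508423-26508722 on the minus strand and has the element at -143 and an E-box at -126 from the start.
Dusp1: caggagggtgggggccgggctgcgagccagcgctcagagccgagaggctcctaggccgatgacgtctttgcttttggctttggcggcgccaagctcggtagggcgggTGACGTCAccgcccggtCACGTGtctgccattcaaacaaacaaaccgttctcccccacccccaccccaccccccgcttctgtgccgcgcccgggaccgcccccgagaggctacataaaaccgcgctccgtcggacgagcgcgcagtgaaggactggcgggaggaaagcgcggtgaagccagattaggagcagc
The Btg2 window is chr1:134079106-134079405, also on the minus strand, with the element at -166 and no E-box.
Btg2: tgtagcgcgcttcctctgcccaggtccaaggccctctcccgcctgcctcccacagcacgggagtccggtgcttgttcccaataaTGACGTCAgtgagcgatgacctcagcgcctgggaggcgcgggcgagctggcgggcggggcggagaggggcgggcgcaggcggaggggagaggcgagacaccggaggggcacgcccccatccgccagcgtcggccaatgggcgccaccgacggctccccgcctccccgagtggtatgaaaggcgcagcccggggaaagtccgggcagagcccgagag
TGACGTCA was in 3 of the 21 immediate early genes with a window (14.3%) and CACGTG in 6 of 21 (28.6%). Of the 11913 tested genes with a window, out of 17019, 3.28% held the first and 11.3% the second. Over all 32851 RefSeq windows the shares were 1.79% and 7.15%. These are matches of letters and were not tested for binding.

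Dusp1 (chromosome 17, 26505591 to 26508472), a phosphatase that switches off MAP kinases, stood at 35.9, 28.8 and 52.8 CPM in Setd2 knockout and at 132.4, 89.7 and 172.8 CPM in the compound mutant. Every compound mutant library was above every Setd2 knockout library, and the difference was alike in the replicate 3 libraries (1.71 log2 units) and in the other 4 (1.76). Its log2 fold change was 1.75 ± 0.26 in the stratum fit (edgeR adjusted p = 0.0284), and over the 6 fits that left out 1 library it ran from 1.55 to 1.98 with adjusted p from 0.00306 to 0.134. With the set term it was 1.37 ± 0.38 (edgeR adjusted p = 0.0527). Nr4a1 (chromosome 15, 101254213 to 101274795), an orphan nuclear receptor, stood at 4.48, 3.57 and 6.12 CPM against 26.1, 9.47 and 57.9 CPM. The groups did not overlap, and the stratum fit gave 2.55 ± 0.38 (edgeR adjusted p = 0.0284), with 2.13 to 2.95 and adjusted p from 0.00452 to 0.134 when a library was left out. Fos, a partner of JUN in the AP-1 factor, stood at 5.67, 2.82 and 1.69 CPM against 94.2, 34.1 and 42.7 CPM. The groups were far apart, but the spread in the compound mutant was wide and no edgeR fit on all libraries called it (log2 fold change 4.06 ± 1.03 by group, adjusted p = 0.503).

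Junb (chromosome 8), another AP-1 subunit, stood at 14.3, 15.3 and 14.1 CPM in Setd2 knockout and at 41.3, 31.8 and 199.0 CPM in the compound mutant. The Setd2 knockout libraries were nearly level and the compound mutant libraries were all higher, with replicate 3 the highest. Its log2 fold change was 3.39 ± 0.51 with the set term (edgeR adjusted p = 0.00778, and 0.00787 to 0.0182 over the fits without 1 library) and 2.16 ± 0.43 in the stratum fit (edgeR adjusted p = 0.0454). Btg2, an antiproliferative gene that p53 and growth signals induce, stood at 15.0, 12.3 and 33.9 CPM against 51.6, 23.2 and 275.4 CPM. MYC Setd2 knockout 2 lay below Setd2 knockout 3, so the groups overlapped, and the set term gave 2.50 ± 0.64 (edgeR adjusted p = 0.0416; 0.0126 to 0.182 without 1 library). Egr1, a zinc finger factor of the serum response, stood at 8.49, 3.31 and 5.08 CPM against 34.1, 18 and 205.1 CPM. All compound mutant libraries were higher, and the set term gave 5.04 ± 0.99 (edgeR adjusted p = 0.0184; 0.0173 to 0.0444 without 1 library). Atf3, a stress-induced repressor, stood at 1.2, 0.842 and 1.26 CPM against 11.0, 1.89 and 79.9 CPM, with compound mutant 2 only just above the Setd2 knockout libraries. Myeloid cells also express immediate early genes, and the summed level of 9 tested neutrophil markers was 7.8, 7.9 and 43 CPM in Setd2 knockout and 96.3, 73.2 and 60.1 CPM in the compound mutant. That of 26 macrophage and myeloid markers was 116, 93.8 and 317.4 CPM against 432, 239.8 and 594.1 CPM. Their part in these differences was not tested.

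**Figure D2:**
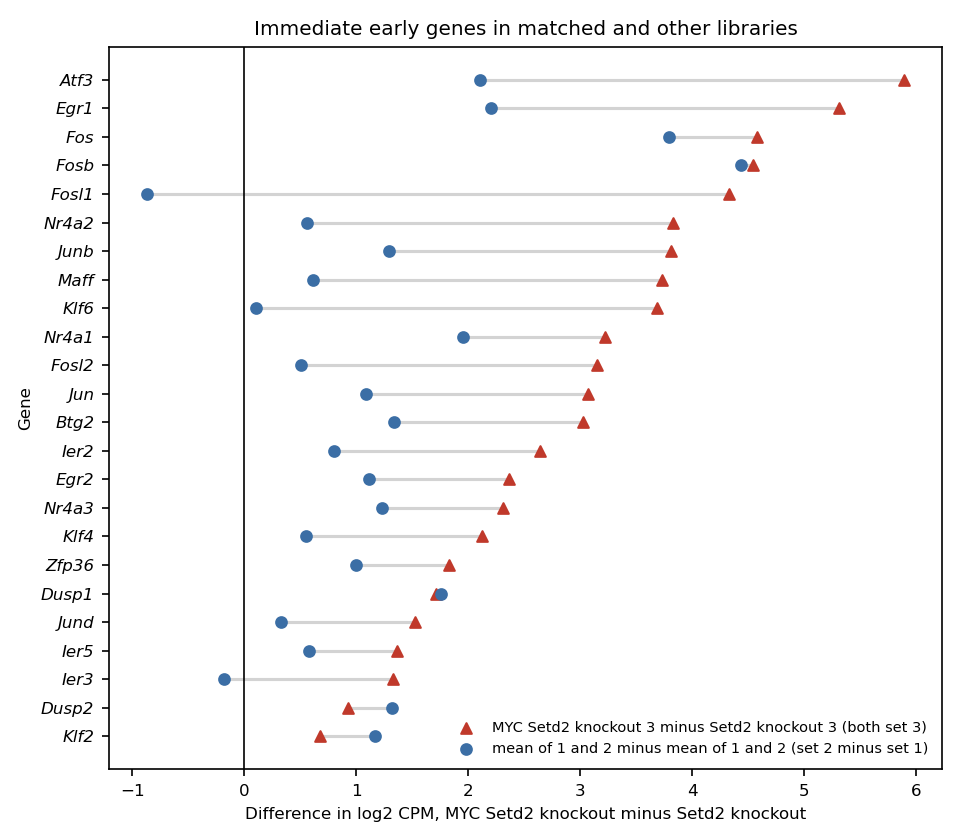
Difference in log2 CPM (MYC Setd2 knockout minus Setd2 knockout) of the 24 tested immediate early genes, with triangles for replicate 3 of both groups and circles for the means of replicates 1 and 2. In 22 of the 24 genes both points lie above 0, and the medians are 3.04 and 1.10.

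Among 35 genes of nucleotide, polyamine, serine and one-carbon synthesis, most did not shift, but 2 enzymes were higher in all compound mutants and in both further fits. The median log2 fold change of the list was 0.16 by group and 0.27 with the set term. Called higher with the set term were 6 of 35 (Cad, Gart, Atic, Impdh1, Impdh2 and Phgdh) and lower 2, among them Shmt2 (all genes, 3.1% and 5.75%), and the stratum fit called Phgdh and Impdh2 higher. Without MYC Setd2 knockout 3 the set term called 1 higher and none lower, without Setd2 knockout 1 or 2 it called 2 higher and 1 lower, and without MYC Setd2 knockout 1 it called 3 higher. Phgdh (chromosome 3, 98313171 to 98339969), which catalyses the first step of serine synthesis from glucose, stood at 7.58, 3.98 and 8.3 CPM in Setd2 knockout and at 30.7, 22.5 and 32.6 CPM in the compound mutant. The compound mutant libraries were all well above the Setd2 knockout libraries, in both strata. The log2 fold change was 2.11 ± 0.34 by group, 2.03 ± 0.48 with the set term (edgeR adjusted p = 0.0316, and 0.0311 to 0.0479 without 1 library) and 2.13 ± 0.28 in the stratum fit (edgeR adjusted p = 0.0284, and 0.0041 to 0.134 without 1 library).

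Impdh2 (chromosome 9, 108560291 to 108565584), the rate-limiting enzyme of guanine nucleotide synthesis, stood at 5.99, 4.12 and 12.6 CPM in Setd2 knockout and at 17.6, 15.5 and 39.3 CPM in the compound mutant. The groups did not overlap, and the difference was 1.64 log2 units in the replicate 3 libraries and 1.72 in the others. Its log2 fold change was 1.46 ± 0.36 with the set term (edgeR adjusted p = 0.0376, and 0.0373 to 0.127 without 1 library) and 1.69 ± 0.23 in the stratum fit (edgeR adjusted p = 0.0284, and 0.0033 to 0.134 without 1 library). Impdh1, its paralogue, stood at 8.32, 9.06 and 5.79 CPM against 20.3, 11.2 and 35.8 CPM, again without overlap. Odc1, the first enzyme of polyamine synthesis and a classic MYC target, overlapped between the groups, with 651.8, 398.7 and 200 CPM against 396.8, 1067.9 and 173.5 CPM. The Phgdh promoter window holds no CACGTG. The Impdh2 promoter (chr9:108560186-108560485, plus strand) is shown because it holds a CACGTG, in capitals, at -110 from the RefSeq start.
Impdh2: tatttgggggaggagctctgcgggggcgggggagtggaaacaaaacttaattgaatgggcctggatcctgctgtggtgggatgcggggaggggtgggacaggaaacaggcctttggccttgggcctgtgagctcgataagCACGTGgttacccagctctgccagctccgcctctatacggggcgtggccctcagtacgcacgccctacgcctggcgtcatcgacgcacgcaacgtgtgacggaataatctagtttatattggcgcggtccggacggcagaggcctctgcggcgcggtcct
CACGTG was in 6 of the 31 genes of the list that have a window (19.4%; all tested genes with a window, 11.3%).

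**Figure D3:**
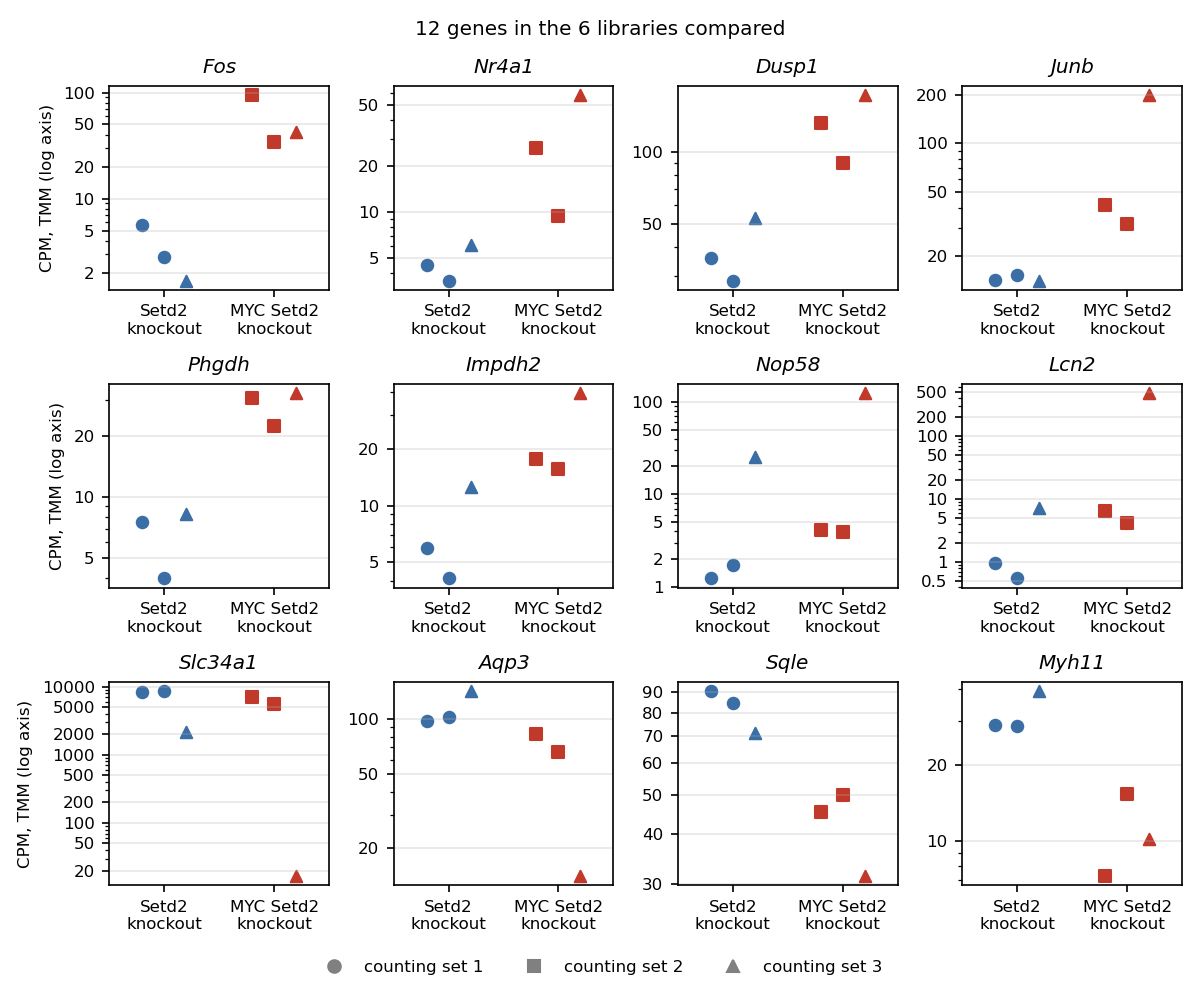
Level of 12 genes in each library (CPM, log axis), Setd2 knockout at the left and MYC Setd2 knockout at the right of each panel, with marker shapes for the counting sets. Fos, Nr4a1, Dusp1, Junb, Phgdh and Impdh2 are higher in every compound mutant library than in any Setd2 knockout library, and Sqle and Myh11 are lower, while Nop58, Lcn2 and Slc34a1 overlap between the groups.

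Ribosome biogenesis genes, which encode the nucleolar factors that process ribosomal RNA and assemble subunits, were higher in MYC Setd2 knockout 3 and not in the other compound mutants. The median of 65 genes was 0.63 by group and 1.07 with the set term, but 1.43 in the replicate 3 libraries and -0.03 in the other 4. The summed level was 1839.5, 1854.6 and 2066.5 CPM in Setd2 knockout and 1817.1, 1881.0 and 6317.9 CPM in the compound mutant. With the set term 20 of 65 were called higher and 0 lower (all genes, 3.1% and 5.75%), and the stratum fit called Nop58. There were 4 higher calls with the set term without MYC Setd2 knockout 3 (all genes, 727 of 17734). Without Setd2 knockout 1 or 2 there were 6 (all genes, 268 of 17855 and 268 of 17874). Ncl, the nucleolar protein nucleolin, stood at 105.4, 90.5 and 380.9 CPM in Setd2 knockout and at 67.5, 71.8 and 1498.6 CPM in the compound mutant. Within each group replicate 3 stood far above the other libraries, and outside set 3 the compound mutants were the lower ones. Npm1, nucleophosmin, stood at 120.8, 105.1 and 198.9 CPM against 178.6, 218.6 and 813.0 CPM, higher in each stratum. Nop58, a core protein of the particles that guide ribosomal RNA methylation, stood at 1.23, 1.71 and 25.0 CPM against 4.07, 3.91 and 124.1 CPM. It was higher in both strata, and the set term gave 2.05 ± 0.35 (edgeR adjusted p = 0.0121, and 0.0121 to 0.04 without 1 library). Its stratum value of 1.81 ± 0.24 had an edgeR adjusted p of 0.0284, which ran up to 0.0998 when a library was left out.

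Wdr43, a factor of the small subunit processome, stood at 5.5, 6.39 and 32.7 CPM in Setd2 knockout and at 7.81, 9.72 and 107.2 CPM in the compound mutant. The compound mutant was higher within each stratum, by 1.71 and 0.55 log2 units, and the set term gave 1.42 ± 0.34 (edgeR adjusted p = 0.0346, and 0.0241 to 0.188 without 1 library). The promoter windows of Ncl, Npm1 and Nop58 hold no CACGTG. The Wdr43 promoter (chr17:71615965-71616264, plus strand) is shown as the window of a biogenesis gene with a CACGTG, in capitals, at 17 bases after the start.
Wdr43: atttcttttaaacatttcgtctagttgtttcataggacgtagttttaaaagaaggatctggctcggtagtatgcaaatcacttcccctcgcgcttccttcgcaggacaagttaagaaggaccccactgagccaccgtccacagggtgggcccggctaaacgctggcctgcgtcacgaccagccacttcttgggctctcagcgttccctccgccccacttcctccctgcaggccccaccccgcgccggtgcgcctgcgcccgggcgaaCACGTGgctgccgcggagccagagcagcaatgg
CACGTG was in 12 of the 59 biogenesis genes that have a window (20.3%; all tested genes with a window, 11.3%). It was in 13.7% of the genes called higher with the set term that have a window and in 10.7% of those called lower. Those shares cover 386 of 528 and 738 of 978 called genes, and the share of all tested genes covers 11913 of 17019. Among genes without overlap between the groups, it was in 11% of those higher and 10.8% of those lower that have a window. None of these shares was tested.

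Genes of cytosolic ribosomal proteins were higher in both strata. Of 77 genes, 74 had a higher level in both, and the median was 1.28 log2 units in the replicate 3 libraries and 1.61 in the other 4. In the set term fit 15 of 77 were called higher and in the stratum fit 23 (all genes, 3.1% and 0.781%). Higher without overlap were 12 (all genes, 5.56%). Rps10, of the small subunit, stood at 31.1, 22.6 and 31.8 CPM in Setd2 knockout and at 64.3, 70.7 and 77.0 CPM in the compound mutant. Its levels did not follow the counting sets, and the stratum fit gave 1.31 ± 0.23 (edgeR adjusted p = 0.0384, and 0.0141 to 0.142 without 1 library). The set term did not call it (1.15 ± 0.37, edgeR adjusted p = 0.079). Rpl3, of the large subunit, stood at 0.705, 0.61 and 238.2 CPM against 8.58, 6.18 and 932.2 CPM, and so differed more between sets than between genotypes. These genes have many near-identical pseudogenes, so their counts are uncertain, and the number with under 5 CPM was 28, 28 and 6 in Setd2 knockout and 14, 13 and 3 in the compound mutant. The summed level was 4010.7, 3846.8 and 12540.9 CPM against 8777.2, 9596.2 and 33247.1 CPM. The part of the counting sets in the difference of replicates 1 and 2 cannot be told apart from genotype. Without MYC Setd2 knockout 3 the set term called 0, and without Setd2 knockout 1 or 2 it called 4. The stratum fit called 9 without MYC Setd2 knockout 3, 4 without MYC Setd2 knockout 2, and 0 without Setd2 knockout 1, Setd2 knockout 2 or MYC Setd2 knockout 1.

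Genes of the MYC network, meaning MYC's partners, antagonists and cofactors, had medians of opposite sign in the 2 strata. The median difference was 0.70 log2 units in the replicate 3 libraries, where 15 of 20 genes were higher, and -0.22 in the other 4. The median log2 fold change was 0.18 by group, 0.63 with the set term and 0.19 in the stratum fit. Of 20 tested, the set term called Mlxip, a glucose-sensing factor, and Kat2a, an acetyltransferase, higher and Mlx, the dimer partner of Mlxip, lower (all genes, 3.1% and 5.75%). Mlxip stood at 24.8, 28.7 and 32.8 CPM in Setd2 knockout and at 41.1, 27.5 and 105.4 CPM in the compound mutant, and Mlx at 53.8, 51.5 and 37.7 CPM against 36.9, 48.2 and 14.0 CPM. In both genes MYC Setd2 knockout 3 lay outside all other libraries and the groups overlapped. Ruvbl1 (chromosome 6, 88465423 to 88497566), a helicase that MYC recruits, stood at 9.41, 9.35 and 11.7 CPM against 21.2, 17.5 and 18.7 CPM, without overlap. Its log2 fold change was 0.92 ± 0.18 in the stratum fit (edgeR adjusted p = 0.0454) and 0.64 ± 0.26 with the set term (edgeR adjusted p = 0.149). Without MYC Setd2 knockout 3 the set term called none of the 20, and without Setd2 knockout 1, Setd2 knockout 2 or MYC Setd2 knockout 1 it called none higher and 1 lower. Max, the dimer partner of MYC, stood at 40.6, 50.1 and 48.5 CPM against 52.9, 47.0 and 87.8 CPM and was not called.

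**Figure D4:**
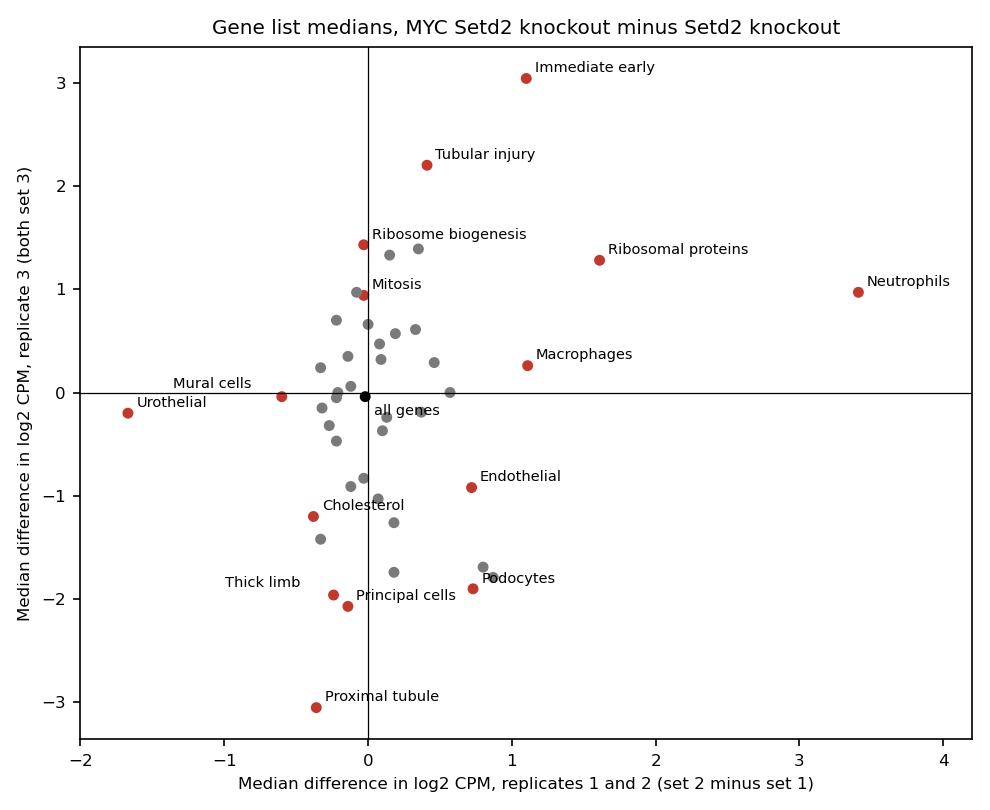
Median difference in log2 CPM of each gene list, replicates 1 and 2 on the horizontal axis and replicate 3 on the vertical axis. Immediate early genes lie at 1.10 and 3.04 and ribosomal proteins at 1.61 and 1.28, while ribosome biogenesis genes and tubule segment markers depart from 0 mainly in replicate 3.

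Many markers of the nephron segments were called lower with the set term, and their medians differed far more in the replicate 3 libraries than in the other 4. Of 50 proximal tubule genes, the transporters and enzymes of bulk reabsorption, 25 were called lower and 0 higher (all genes, 5.75% and 3.1%), and leaving out 1 library gave 22 to 29. The median was -3.05 log2 units in the replicate 3 libraries and -0.36 in the other 4. The summed level was 106064.3, 118582.6 and 51930.7 CPM in Setd2 knockout and 80462.8, 91844.0 and 11426.3 CPM in the compound mutant. In bulk samples fewer cells of a type and less RNA per cell cannot be told apart. The stratum fit called 0 of the 50, and 3 were without overlap (all genes, 4.41%).

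Slc34a1, the main phosphate transporter of the proximal tubule, stood at 8243.8, 8653.6 and 2187.4 CPM in Setd2 knockout and at 7000.4, 5622.6 and 16.6 CPM in the compound mutant. Replicates 1 and 2 were close between genotypes and MYC Setd2 knockout 3 was far below all others. It was not called (set term -4.85 ± 1.52, edgeR adjusted p = 0.0729). Lrp2, the endocytic receptor megalin, stood at 3022.4, 4718.7 and 2707.4 CPM against 2695.0, 2372.4 and 126.8 CPM. Every compound mutant library was lower than every Setd2 knockout library, though compound mutant 1 only just, and the set term gave -3.54 ± 0.70 (edgeR adjusted p = 0.0184, and 0.0172 to 0.0312 without 1 library). Aqp1, the water channel of the proximal tubule and thin limb, stood at 555.7, 587.5 and 1103.4 CPM against 569.5, 522.1 and 188.9 CPM. Replicates 1 and 2 were level and the replicate 3 libraries differed, and the set term gave -2.52 ± 0.24 (edgeR adjusted p = 0.00173, and 0.00196 to 0.00723 without 1 library). Hnf4a, the transcription factor that maintains proximal tubule identity, stood at 807.4, 1044.2 and 618.5 CPM against 659.2, 766.6 and 213.1 CPM, with overlap. Pdzk1, a scaffold of brush border transporters, went both ways. It stood at 4.37, 8.13 and 760.3 CPM against 52.9, 44.2 and 56.4 CPM, lower in replicate 3 and higher in the others.

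In the distal segments 1 or the other replicate 3 library stood apart. Called lower with the set term were 8 of 16 thick ascending limb genes, 10 of 16 of the distal convoluted and connecting tubule, 7 of 18 of principal cells and 8 of 17 of intercalated cells (all genes, 5.75%), none higher (all genes, 3.1%), and the stratum fit called none. Leaving out 1 library gave 6 to 9, 9 to 11, 6 to 10 and 7 to 9 lower calls in these lists, with 1 call higher in principal cells without MYC Setd2 knockout 3. Their medians were -1.96, -1.74, -2.07 and -1.03 log2 units in the replicate 3 libraries and -0.24, 0.18, -0.14 and 0.07 in the other 4. Slc12a1, the salt transporter of the thick limb, stood at 334.6, 340.7 and 1877.3 CPM in Setd2 knockout and at 348.6, 189.8 and 331.7 CPM in the compound mutant. Setd2 knockout 3 was the library that stood apart, high rather than low. Egf, which the thick and distal tubule secrete, stood at 1488.3, 1576.8 and 2222.1 CPM against 1932.1, 776.7 and 61.0 CPM, with MYC Setd2 knockout 3 by far the lowest. Calb1, a calcium buffer of the distal tubule, stood at 368.4, 367.6 and 529.5 CPM against 443.2, 433.2 and 20.3 CPM. Its set term value was -4.05 ± 0.51 (edgeR adjusted p = 0.00577) although compound mutants 1 and 2 were above Setd2 knockout 1 and 2. Klk1, kallikrein, and Pvalb, parvalbumin, were also called lower with the set term while their group values were above 0. Aqp3, a water channel of principal cells, stood at 97.5, 102.6 and 141.8 CPM against 82.9, 66.0 and 14.0 CPM, lower in every compound mutant. The set term gave -2.87 ± 0.37 (edgeR adjusted p = 0.00585), and the stratum value was -1.39 ± 0.47 (edgeR adjusted p = 0.151).

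Metabolic lists that the proximal tubule expresses strongly also held lower calls, but not all followed the proximal tubule sum. The summed level of oxidative phosphorylation genes was 18930, 17190.9 and 18471.3 CPM in Setd2 knockout and 17771.1, 18215.1 and 10937.4 CPM in the compound mutant. Setd2 knockout 3 was thus level with its group in that list. Lower with the set term were 20 of 49 genes of fatty acid oxidation, peroxisome and ketone enzymes, 7 of 47 nuclear genes of oxidative phosphorylation and 9 of 11 gluconeogenesis and fructose enzymes (all genes, 5.75%), with none higher and none called in the stratum fit. Leaving out 1 library gave 14 to 20, 2 to 11 and 7 to 9. The lowest count for oxidative phosphorylation, 2 of 47, came without Setd2 knockout 1 or 2 (all genes, 641 of 17855 and 644 of 17874). The next, 4, came without MYC Setd2 knockout 3 (all genes, 890 of 17734). Fbp1, which removes a phosphate from fructose bisphosphate in glucose synthesis, stood at 1614.3, 1703.3 and 657.3 CPM in Setd2 knockout and at 1312.4, 1153.9 and 140.7 CPM in the compound mutant. Replicate 3 was the lowest library of each group, as for the proximal tubule sum given above. Acadm, the medium-chain acyl-CoA dehydrogenase, stood at 651.5, 661.8 and 1716.9 CPM against 492.3, 667.5 and 621.3 CPM, so only Setd2 knockout 3 stood apart. The part of proximal tubule content in these lists was not tested. The 20 glycolysis genes had medians of -0.19 and 0.37 in the 2 strata, and the set term called 1 higher (all genes, 3.1%).

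Cholesterol synthesis genes were mostly lower in both strata. The median of 23 genes was -1.20 log2 units in the replicate 3 libraries and -0.38 in the other 4, and 17 of 23 were lower in both. The set term called 8 lower (all genes, 5.75%) and the stratum fit called Sqle and Hsd17b7 lower (all genes, 0.276%). Sqle (chromosome 15, 59315092 to 59331193), squalene epoxidase, stood at 90.8, 84.8 and 71.4 CPM in Setd2 knockout and at 45.3, 50.1 and 31.4 CPM in the compound mutant. All compound mutant libraries were lower, with differences of -1.18 log2 units in the replicate 3 libraries and -0.88 in the other 4. The log2 fold change was -0.96 ± 0.21 by group, -1.10 ± 0.22 with the set term (edgeR adjusted p = 0.0189, and 0.0191 to 0.052 without 1 library) and -0.98 ± 0.15 in the stratum fit (edgeR adjusted p = 0.0284, and 0.00763 to 0.134 without 1 library). Cyp51, the sterol demethylase, stood at 188.5, 220.1 and 304.5 CPM against 72.4, 104.4 and 24.4 CPM. It did not overlap either, and the set term gave -3.52 ± 0.29 (edgeR adjusted p = 0.00108, and 0.00112 to 0.0044 without 1 library). Hsd17b7, which also acts late in sterol synthesis, stood at 41.9, 33.9 and 25.3 CPM against 19.6, 24.0 and 11.9 CPM, with the groups just apart. Without MYC Setd2 knockout 3 the set term called 3 of 23 lower, and the stratum fit called none without Setd2 knockout 1, Setd2 knockout 2 or MYC Setd2 knockout 1, 1 without MYC Setd2 knockout 3 and 4 without Setd2 knockout 3.

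Genes of tubular injury and repair were higher, most of all in MYC Setd2 knockout 3. With the set term 17 of 34 were called higher and 0 lower (all genes, 3.1% and 5.75%), and the stratum fit called Lcn2 and Plaur. The median was 2.20 log2 units in the replicate 3 libraries and 0.41 in the other 4, and the summed level was 2232.0, 2171.8 and 2861.2 CPM in Setd2 knockout and 4515.5, 2177.9 and 11283.5 CPM in the compound mutant. Without Setd2 knockout 1 or 2 the set term called 9, and without MYC Setd2 knockout 3 it called 12. Lcn2, the injury marker lipocalin, stood at 0.951, 0.552 and 7.37 CPM against 6.6, 4.17 and 486.2 CPM. Each compound mutant was above the Setd2 knockout library or libraries of its stratum, and the set term gave 5.37 ± 0.93 (edgeR adjusted p = 0.0128, and 0.00833 to 0.0248 without 1 library). Plaur, the urokinase receptor, stood at 3.59, 3.95 and 4.97 CPM against 14.5, 9.47 and 25.1 CPM, without overlap, and its stratum value was 1.88 ± 0.37 (edgeR adjusted p = 0.0453, and 0.0457 to 0.142 without 1 library). Havcr1, the injury antigen KIM-1, stood at 0.811, 0.29 and 0.0546 CPM against 0, 0.757 and 23.2 CPM, and Krt20, a keratin of injured tubules, at 0.67, 0.378 and 0.0546 CPM against 0.44, 0.126 and 81.3 CPM. Both were high in MYC Setd2 knockout 3 and near 0 in the other 5 libraries. Sox9, a factor of regenerating tubules, stood at 0.423, 0.407 and 0.492 CPM against 1.1, 0.757 and 18.9 CPM, low but above every Setd2 knockout library. Spp1, osteopontin, stood at 1098.0, 1198.5 and 1278.3 CPM against 2938.6, 1025.6 and 5544.5 CPM, with compound mutant 2 below the Setd2 knockout libraries. The proximal tubule sum given above was lowest in the library where these genes were highest, and its part in them was not tested.

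Matrix proteases and their inhibitors, p53 targets and cell cycle genes had fewer calls. Of 23 proteases and inhibitors the set term called 8 higher and 1 lower (all genes, 3.1% and 5.75%). Mmp14, a membrane collagenase, stood at 6.17, 5.63 and 11.8 CPM in Setd2 knockout and at 10.9, 9.85 and 56.8 CPM in the compound mutant (set term 2.22 ± 0.33, edgeR adjusted p = 0.00769). Compound mutants 1 and 2 lay just below Setd2 knockout 3, so the groups overlapped. Plau, urokinase, was the lower one, at 247.6, 304.9 and 608.5 CPM against 164.9, 283.5 and 171.0 CPM, with overlap. Of 31 CDK inhibitors and p53 targets, 7 were called higher (all genes, 3.1%), namely Trp53, Pmaip1, Gadd45a, Btg2, Trp53inp1, Eda2r and Plk2. Gadd45a, a DNA damage gene, stood at 27.6, 23.7 and 24.4 CPM against 32.2, 40.8 and 68.5 CPM, and Plk2, a p53-induced kinase, at 15.6, 13.1 and 6.61 CPM against 24.5, 16.8 and 39.9 CPM. Neither overlapped between the groups. Cdkn1a, the CDK inhibitor p21, stood at 7.44, 4.85 and 34.5 CPM against 19.4, 9.34 and 136.0 CPM, higher within each stratum, and was not called. Without Setd2 knockout 1, Setd2 knockout 2 or MYC Setd2 knockout 3 the p53 list had 4 calls, and without Setd2 knockout 1 or 2 the protease list had 4 higher.

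Cell cycle genes stayed low. Of 62 tested genes of mitosis and G2/M the set term called 6 higher (Cdk1, Incenp, Kif23, Casc5, Mybl2 and Plk1) and of 48 genes of S phase 3 (Mcm7, Chaf1b and Dscc1; all genes, 3.1%), while the stratum fit called none. Cdk1, the mitotic kinase, stood at 1.62, 1.05 and 0.983 CPM in Setd2 knockout and at 2.31, 1.77 and 4.01 CPM in the compound mutant. The groups did not overlap, but the levels were a few CPM. Mki67, the proliferation marker, stood at 6.31, 3.6 and 3.0 CPM against 3.85, 2.65 and 9.01 CPM, with overlap and no call. The summed level of the mitosis list was 223.2, 162.8 and 180.9 CPM against 231.0, 172.9 and 275.1 CPM. In the mitosis list there were 15 calls without MYC Setd2 knockout 3 and 3 without Setd2 knockout 1 or 2. The first of these fits takes the step from set 2 to set 3 from the MYC libraries alone.

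Heat shock chaperones and NF-kB genes each held a gene with a steady difference. Hspb1, a small heat shock protein, stood at 2.22, 1.8 and 6.01 CPM in Setd2 knockout and at 14.5, 5.68 and 55.2 CPM in the compound mutant. It was higher within each stratum and overlapped narrowly across them, and the stratum fit gave 2.66 ± 0.37 (edgeR adjusted p = 0.0284, and 0.00544 to 0.134 without 1 library). Of 22 chaperones the set term called 3 higher and 1 lower (all genes, 3.1% and 5.75%). Cxcl12, a chemokine of stromal and tubular cells, stood at 81.8, 79.1 and 180.2 CPM against 47.2, 36 and 71.0 CPM. All compound mutant libraries were lower, and the set term gave -1.5 ± 0.28 (edgeR adjusted p = 0.0157, and 0.0123 to 0.0313 without 1 library). Of 24 NF-kB and chemokine genes the set term called 3 others higher (Cxcl2, Cxcl5 and Birc3), and without MYC Setd2 knockout 3 it called 7 higher. No chaperone was called higher in that fit.

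The cortex holds other cells, and their markers did not stay level. Of 13 neutrophil markers 9 were tested, and 7 of the 9 lay higher in every compound mutant (all genes, 5.56%). The set term called 0 of the 9 higher and the stratum fit 1 (all genes, 3.1% and 0.781%). Their median difference was 0.97 log2 units in the replicate 3 libraries and 3.41 in the other 4, where set and genotype cannot be told apart. Retnlg, a neutrophil resistin-like gene, stood at 0.564, 0.349 and 2.24 CPM in Setd2 knockout and at 5.94, 7.32 and 10.9 CPM in the compound mutant (stratum 3.30 ± 0.54, edgeR adjusted p = 0.0318, and 0.00356 to 0.134 without 1 library). With the set term its edgeR adjusted p ran from 0.0779 to 0.126 without 1 library. S100a9, an abundant neutrophil protein, stood at 1.94, 1.92 and 15.7 CPM against 31.0, 29.2 and 18.2 CPM, the groups being close in replicate 3. Of the untested markers, Elane had 0 counts in all 6 libraries and Mpo 0 in Setd2 knockout and 3, 0 and 2 in the compound mutant. Ly6g had 1, 0 and 7 counts in Setd2 knockout and 5, 4 and 0 in the compound mutant. Camp had 1, 0 and 8 counts against 15, 5 and 7. Neither of these was higher in MYC Setd2 knockout 3 than in Setd2 knockout 3. Of 26 macrophage and myeloid genes the set term called Cd68 and Cd14 higher and the stratum fit Ctss (all genes, 3.1% and 0.781%). Without MYC Setd2 knockout 3 the set term called 19 higher (all genes, 727 of 17734). That fit takes the step from set 2 to set 3 from the MYC libraries alone. Igj, the immunoglobulin joining chain, stood at 4.79, 2.7 and 42.4 CPM against 16.4, 15.3 and 514.3 CPM (set term 3.86 ± 0.57, edgeR adjusted p = 0.00769), higher within each stratum. The summed level of 21 lymphocyte and plasma cell markers, Igj among them, was 36.6, 29.2 and 69.1 CPM against 110.4, 105.5 and 594.0 CPM. In replicate 3 most of that sum was Igj. The median difference of the 21 was 0 log2 units in the replicate 3 libraries and 0.57 in the other 4.

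Podocyte and endothelial markers went opposite ways in the 2 strata. The summed level of 16 podocyte genes was 1689.7, 2257.3 and 1018.5 CPM in Setd2 knockout and 3397.8, 3119.5 and 252.8 CPM in the compound mutant, and that of 22 endothelial genes was 1484.2, 1792.9 and 1340.4 CPM against 3385.0, 2251.7 and 725.2 CPM. In both lists compound mutants 1 and 2 were the highest and compound mutant 3 the lowest. Among markers of mural cells, the contractile cells around vessels, some were lower. Myh11, smooth muscle myosin, stood at 28.9, 28.6 and 39.4 CPM against 7.26, 15.3 and 10.2 CPM, without overlap. Its log2 fold change was -2.08 ± 0.41 with the set term (edgeR adjusted p = 0.0183, and 0.0105 to 0.035 without 1 library) and -1.57 ± 0.31 in the stratum fit (edgeR adjusted p = 0.0453, and 0.0426 to 0.134 without 1 library). Acta2, smooth muscle actin, did not overlap either, at 32.7, 24.3 and 36.8 CPM against 15.4, 18.8 and 14.1 CPM, and was not called. Of 20 fibroblast and mural genes the set term called 3 lower, namely Myh11, Cspg4 and Ren1 (all genes, 5.75%). The part of these cells in the other differences was not tested.

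**Figure D5:**
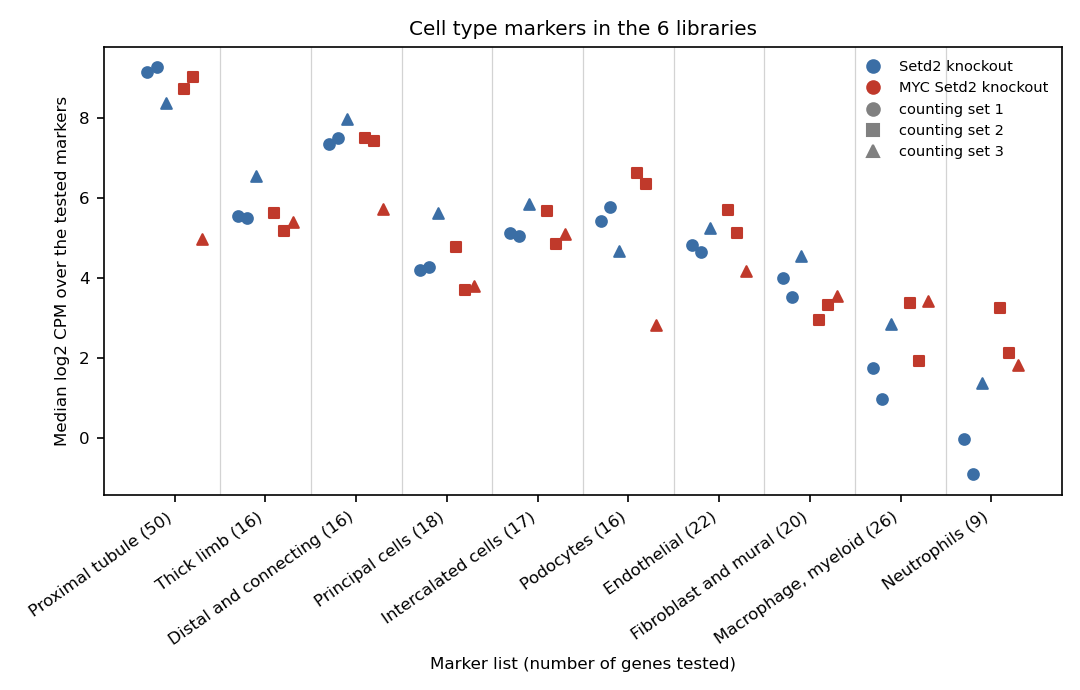
Median log2 CPM of the markers of nephron segments and other cells in each library, blue for Setd2 knockout and red for MYC Setd2 knockout, with shapes for the counting sets and the number of tested markers in brackets. MYC Setd2 knockout 3 is the lowest library for proximal tubule and podocyte markers, and the neutrophil markers are lowest in Setd2 knockout 1 and 2.

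The naming rule took genes first from the fit by group, which gave none, and then 12 in each direction among genes called with the set term that had the same sign by group and in the replicate 3 libraries, ordered by the smaller of both fitted changes. There were 479 such genes higher and 895 lower. The 12 higher were Igkv12-38, Saa1, Sprr2f, Cuzd1, Mmp7, Igkv4-58, Crisp1, Tmprss11e, Igkv8-19, Clec2f, Igkv5-39 and Gpnmb. Mmp7, the matrix protease matrilysin, which injured and Wnt-active tubules make, stood at 0, 0 and 0.218 CPM in Setd2 knockout and at 0, 0 and 74.6 CPM in the compound mutant. Gpnmb, a glycoprotein of macrophages and injured tubules, stood at 0.176, 0.0581 and 0.328 CPM against 0.33, 0.126 and 40.4 CPM, and Cuzd1 at 0, 0 and 0.0546 CPM against 0, 0 and 18.2 CPM. Each rests on MYC Setd2 knockout 3, and 4 immunoglobulin kappa variable segments are among the 12.

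The 12 lower were Il2ra, Aqp4, Gcm1, Slc7a12, Elfn1, Mep1b, Fst, Slc22a7, Slc6a12, Corin, Cmah and Slc22a13. Aqp4, a basolateral water channel, stood at 7.47, 4.79 and 197.8 CPM in Setd2 knockout and at 2.75, 1.64 and 1.81 CPM in the compound mutant, and Slc7a12, an amino acid transporter of the proximal tubule, at 2.75, 2.53 and 434.8 CPM against 2.42, 1.39 and 12.6 CPM. Slc22a7, an organic anion transporter, stood at 21.7, 9.06 and 210.6 CPM against 1.21, 5.55 and 8.46 CPM. In all of these Setd2 knockout 3 stood far above the other libraries. Aqp4 and Slc22a7 were nevertheless lower in every compound mutant than in any Setd2 knockout library.

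Outside the lists, 3 genes without overlap were picked after their values were seen. Socs3, which STAT3 induces and which restrains cytokine signals, stood at 2.54, 3.66 and 9.67 CPM in Setd2 knockout and at 26.6, 11.7 and 61.1 CPM in the compound mutant (stratum 2.64 ± 0.42, edgeR adjusted p = 0.0302, and 0.0145 to 0.134 without 1 library). Kpna2, a nuclear import receptor, stood at 1.23, 1.02 and 2.13 CPM against 4.29, 3.79 and 8.13 CPM (stratum 1.88 ± 0.31, edgeR adjusted p = 0.0318, and 0.00903 to 0.137 without 1 library). The set term did not call Kpna2 (1.68 ± 0.47, edgeR adjusted p = 0.0545). Id4, an inhibitor of basic helix-loop-helix factors, stood at 25.3, 14.2 and 46.8 CPM against 5.17, 8.84 and 9.28 CPM (set term -2.68 ± 0.44, edgeR adjusted p = 0.011, and 0.00593 to 0.0157 without 1 library). The stratum fit did not call Id4 (-1.84 ± 0.4, edgeR adjusted p = 0.0575). In each, all compound mutant libraries lay on 1 side of all Setd2 knockout libraries, and the difference had the same sign in both strata.

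Genes of the chromatin mark that both groups were bred to lose did not pass these tests. None of 23 writers, erasers and readers of H3K36 methylation and none of 12 genes of Polycomb repressive complex 2 was called by edgeR by group, with the set term or in the stratum fit, and DESeq2 called 1 of the 12 higher. Leaving out MYC Setd2 knockout 1 gave 1 call higher in each list with the set term, and leaving out Setd2 knockout 3 gave 1 in the H3K36 list in the stratum fit. Nsd1, which places dimethylation on the same lysine, stood at 103.2, 142.3 and 125.9 CPM in Setd2 knockout and at 103.2, 113.9 and 187.2 CPM in the compound mutant. Ezh2, the Polycomb methyltransferase, stood at 11.8, 7.49 and 7.21 CPM against 6.93, 7.57 and 7.25 CPM. Both overlapped, and levels of RNA say nothing of the marks themselves. The 13 mRNAs of the mitochondrial genome had a median difference of -1.69 log2 units in the replicate 3 libraries and 0.80 in the others.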

How the data were processed

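RNA sequencing counts per gene were analysed for 12 libraries. Per the labels' protocols, RNA was extracted with Trizol, poly(A)-selected and made into directional libraries that were sequenced from both ends. Per the submitters' processing notes, which give no roles, the builds were mm10 and GRCm38 and the tools HISAT2, StringTie, Trimmomatic 0.35, cutadapt 1.9.1, MACS2 2.1.1 and FastQC. The sources used here do not give the counting program, its strand setting or its annotation. The authors deposited whole-number read counts, not normalized, for 44792 gene symbols, of which 13557 had no count in any library.

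Tests used edgeR 4.0.16 in R 4.3.3 (quasi-likelihood F test, TMM, filterByExpr, 1 coefficient per group, all 12 libraries), which left 17019 genes, with Benjamini-Hochberg adjustment over them and a threshold of 0.05. Residual degrees of freedom were 8 by group, 6 with the set term and 7 in the stratum fit, and the biological coefficients of variation were 0.58, 0.27 and 0.32. limma 3.58.1 and DESeq2 1.42.0 were alternatives. Differences between strata are of log2 CPM with a prior count of 2. Gene lists (46, with 1274 members, 1241 tested) and the members described were chosen with earlier results of these data known, and the stratum fit and fits without 1 library that carry a set or stratum term were added after the data had been seen. Genes were named by rule: Setd2, Myc and the MYC network, the 12 per direction described in the report, and of each list its first 2 members and the 6 with the widest fold change by group. Other genes named were chosen after their values were seen. Promoters are RefSeq windows of GRCm38.p6. Some members of the lists are not reported here by name.

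Replicate numbers recur in both groups. Same-numbered libraries deviated from their group means together (correlations 0.37, 0.55 and 0.6). Replicates 1 and 2 correlated across numbers as well (0.49 and 0.44), and only replicate 3 stood apart. These values do not show that libraries 1 and 2 are paired by number, and the main fits left the numbers out. A replicate block called 0 genes, as the fit by group did. No library pair within a group was a duplicate: the smallest median chi-square was 3.6, where sampling noise gives 0.455. Depth, from 8889185 to 41608501 counts in the 6 libraries, sets the precision of low genes.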

Additional observations from a re-analysis of the deposited data

Results flagged for a closer look

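The difference between MYC Setd2 knockout and Setd2 knockout departed from that between MYC and wild type for 2 genes in the fit by group (edgeR, interaction term). The wild type here is Setd2fl/fl and lacks Cre, so the second difference also includes Cre and the Setd2 allele. Rpl29, a ribosomal protein gene on chromosome 9, where Setd2 also lies, had an interaction of -8.4 ± 0.76 log2 units (edgeR adjusted p = 0.0079). Wild type libraries had 0.196, 0.218 and 0.256 CPM and Setd2 knockout libraries 0.317, 0.349 and 1.15 CPM. MYC libraries had 169.8, 162.6 and 179 CPM and compound mutant libraries 0.88, 0.757 and 2.03 CPM. The 3 groups with the floxed Setd2 allele were thus all near 0 and the MYC group alone was high. Ifi44l, an interferon-induced gene on chromosome 3, had an interaction of 7.28 ± 0.82 (edgeR adjusted p = 0.0309). Its levels were 3.4, 4.48 and 2.65 CPM for wild type libraries, 5.32, 4.65 and 3.11 CPM for Setd2 knockout, 0.0528, 0 and 0.0393 CPM for MYC, and 9.47, 4.42 and 6.87 CPM for the compound mutant. Again the MYC group stood alone, here at almost no counts. With the set term the interaction was called for 6 genes above 0 and 12 below.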

How the results depend on the processing

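The counts of calls decide how the comparison reads. By group, genes higher and lower numbered 0 and 0 in edgeR, and also with a sex term, a replicate block, the 6 libraries alone, RLE factors, total counts, no filter on low counts, and limma-voom. DESeq2 gave 71 and 106, the set term 528 and 978, the set and sex terms 615 and 1134, the stratum fit 133 and 47, and the fit without set 3 894 and 442. Scaling by total counts gave 770 and 659 with the set term and 260 and 43 in the stratum fit, and shifted the median of all genes to 0.16 by group, 0.18 and 0.14. The stratum fit on 6 libraries called 0 and 0. Leaving out 1 library gave 0 to 281 higher and 0 to 130 lower by group, 268 to 727 and 641 to 1142 with the set term, and 0 to 727 and 0 to 343 in the stratum fit. The set term could not be fitted without Setd2 knockout 3. The cause of these shifts was not tested.

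Of 406 genes followed, the set term turned the group direction of 3 that it called: Klk1 at -3.20 (-3.13 with a sex term, -3.02 by total counts, and -3.21, -3.21, -3.41, -3.14 and -2.55 without Setd2 knockout 1 or 2 or MYC Setd2 knockout 1, 2 or 3), Pvalb at -4.60 (in the same order -4.78, -4.46, -4.65, -4.64, -4.66, -4.82 and -2.89) and Clic5 at -1.45 (-1.54 without MYC Setd2 knockout 1). Gpx4 turned to -0.92 with a sex term and -0.93 without MYC Setd2 knockout 2. Without MYC Setd2 knockout 3 the set term turned Bnip3 to -1.44, Slc12a3 to -1.65, Col1a2 to 1.88, Emr1 to 2.70, H2-Aa to 1.93 and Tgfb2 to 3.28. Pdzk1 turned to 2.94 without set 3 and to 2.61 in the stratum fit without Setd2 knockout 3. Of 46 list medians, 20 moved by more than the spread between libraries with the set term, 25 in the replicate 3 libraries alone, and 0 in the stratum fit, in DESeq2 or with RLE factors. Depth limits genes of a few CPM, such as the cell cycle list.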

Other observations

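Dusp1 was also called in the interaction with the set term, at 2.78 ± 0.37 log2 units (edgeR adjusted p = 0.0266). Wild type libraries had 32.3, 29.7 and 33.8 CPM and MYC libraries 23.5, 16.7 and 17.1 CPM, so MYC libraries were lower than wild type while compound mutant libraries were higher than Setd2 knockout. Wild type and MYC libraries are never in the same counting set, and set and genotype cannot be told apart in that side of the comparison.

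For Wnt, TGF-beta and EGF receptor genes the calls were these, where over all genes 3.1% were higher and 5.75% lower. The set term called 1 of 31 Wnt genes higher and 1 lower, 3 of 24 TGF-beta genes higher and 2 lower, and 1 of 12 genes of the EGF receptor family and Met each way. Of 34 interferon-induced genes 1 was called higher and 2 lower, and their median was -1.26 in the replicate 3 libraries and 0.18 in the others. Complement genes (20) had medians of 0.29 and 0.46, with 13 higher in both strata and 1 called. Endoplasmic reticulum stress genes (24) had no call in either further fit.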
